A study of Mus musculus with 12 samples.

Results

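The miR-29 family was followed in mouse quadriceps, a limb skeletal muscle, from birth to adulthood. Its members were chosen by name alone, as the mature arms of miR-29a, miR-29b and miR-29c, which gave 7 of the 1966 mature miRNAs in the count table (mmu-miR-29a-3p, mmu-miR-29a-5p, mmu-miR-29b-3p, mmu-miR-29b-1-5p, mmu-miR-29b-2-5p, mmu-miR-29c-3p and mmu-miR-29c-5p, written below without the species prefix). Small RNA had been sequenced from wild-type C57BL/6J mice at postnatal day 1 (P1), P5, P14 and P90, with 3 libraries at each age and no treatment at any age. Whole muscle was used, so the values are averages over fibres, connective tissue, vessels and blood, and fewer cells of a type cannot be told apart from less RNA per cell. The study's methods give as many mice for an age as there are libraries, and the libraries are therefore taken as separate animals, although the labels do not tie a library to a mouse. In these libraries the list of 7 muscle miRNAs was detected in full at every age, with a summed level of at least 142913 normalized CPM (counts scaled to a common library size by trimmed mean of M values, TMM).

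MiRNAs are short RNAs that pair with messenger RNAs, mainly through the seed at bases 2 to 8, and reduce their translation and stability. The miR-29 family is known as a repressor of extracellular matrix genes, including collagens, elastin and fibrillin, and of the DNA methyltransferases Dnmt3a and Dnmt3b. In muscle it is known to promote myoblast differentiation, and its loss has been linked to fibrosis. Each hairpin precursor is cut into a 5p and a 3p arm, and in this family the 3p arm is the guide that is usually retained by Argonaute, whereas the 5p arm is usually degraded.

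The family is encoded by a pair of clusters, and the sequences set out how far its members can be told apart in read counts. All 7 arms had an entry in RefSeq (build GRCm38.p6), and the mature sequences are shown 5′ to 3′ with the seed in capitals.
miR-29a-3p: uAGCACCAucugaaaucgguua
miR-29b-3p: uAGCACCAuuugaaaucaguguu
miR-29c-3p: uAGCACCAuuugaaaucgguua
miR-29a-5p: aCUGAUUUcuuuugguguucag
miR-29b-1-5p: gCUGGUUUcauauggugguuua
miR-29b-2-5p: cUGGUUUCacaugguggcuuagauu
miR-29c-5p: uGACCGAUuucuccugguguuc

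The 3 guide arms shared the seed AGCACCA, which no other of the 1679 mature mouse miRNAs in the table of sequences carried (3 of 1679, 0.179%). Counted from the 5′ end, miR-29a-3p and miR-29c-3p differed at a single position, C10U. The stretch around this position is known to affect how quickly the mature miRNAs are degraded. MiR-29b-3p differed from miR-29a-3p by C10U, G18A, U21G and A22U, and from miR-29c-3p by G18A, U21G and A22U. It ends in AGUGUU, an end known for directing miR-29b to the nucleus, and 2 of the 1679 sequences (0.119%) ended in these letters. In contrast, the 4 passenger arms as annotated carried 4 different seeds, none of them that of the guide arms. Those of miR-29b-1-5p (CUGGUUU) and miR-29b-2-5p (UGGUUUC) lie in a stretch found in both arms, CUGGUUUC, and differ through the annotated starts. The seed of miR-29b-2-5p was shared with miR-6338, which had no count in any library.

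The precursors are shown with both annotated arms in capitals, the 5p arm first, because the arm that is sequenced decides which locus a read can be assigned to.
Mir29a: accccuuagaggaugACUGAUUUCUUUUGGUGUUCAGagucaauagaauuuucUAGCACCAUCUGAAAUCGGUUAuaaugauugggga
Mir29b-1: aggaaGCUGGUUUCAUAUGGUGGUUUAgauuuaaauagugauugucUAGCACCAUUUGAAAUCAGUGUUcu
Mir29b-2: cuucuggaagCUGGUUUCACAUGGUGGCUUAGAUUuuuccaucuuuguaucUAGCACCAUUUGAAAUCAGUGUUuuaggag
Mir29c: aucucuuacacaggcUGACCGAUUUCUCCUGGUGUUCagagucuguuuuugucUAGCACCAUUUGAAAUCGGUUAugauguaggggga

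Mir29a (chr6:31062660-31062747, minus strand, 88 bases) and Mir29b-1 (chr6:31063023-31063093, minus strand, 71 bases) lie 275 bases apart and form the 29a/29b-1 locus. Both lie in an intron of the lncRNA Gm67885, and Mir29b-1 also overlaps an exon of the lncRNA Gm27019. Mir29b-2 (chr1:195037040-195037120, plus strand, 81 bases) and Mir29c (chr1:195037547-195037634, plus strand, 88 bases) lie 426 bases apart and form the 29b-2/29c locus, in an exon of the lncRNA A330023F24Rik. An exon of the protein-coding gene Cd46 overlaps both of these hairpins on the opposite strand, and the strand setting of the counting is not given in the sources used here. The mature miR-29b-3p is the same for both loci, so its counts cannot be assigned to either. The other 6 arms can be assigned, 3 to each locus.

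The table held between 20363495 and 53126984 counts per library. The P90 libraries stood apart, because miR-1a-3p, the main miRNA of muscle, took up to 56.8% of their counts and at most 30.8% of those of any other library. Their TMM factors were 0.247 to 0.384, compared with 1.24 to 1.72 in the other 9 libraries. Of the 1966 miRNAs, 809 passed the filter on low counts and were tested, including all 7 arms of miR-29. Under other scalings the median log2 fold change (log2FC) of the tested miRNAs for P90 versus P14 moved from -0.55 with TMM to -0.18 with RLE size factors, -2.77 with library totals alone and 0.99 with upper-quartile factors, so changes at P90 are read against these medians.

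Every arm of the family was higher in the adult than in the newborn muscle, and the guide arms were among the miRNAs that rose most. All 7 arms were called across the 4 ages (adjusted p-value, Padj, under 0.05 in edgeR's quasi-likelihood F-test), when 72.4% of all tested miRNAs were. For P90 versus P1, 7 of 7 arms were upregulated, compared with 25.2% of the tested miRNAs called higher, and this held under the 22 other settings tried. The call closest to the threshold was that of miR-29a-5p with library totals alone (log2FC 1.31, Padj = 0.0497). The median log2FC of the arms was 5.41, compared with -0.72 over all miRNAs tested. Ranked by log2FC among the 809 miRNAs, miR-29c-3p, miR-29b-3p and miR-29a-3p were 2, 3 and 4, miR-29c-5p was 6 and miR-29b-2-5p was 9. MiR-29b-1-5p and miR-29a-5p, the arms with the smallest rise, were at ranks 25 and 28.

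**Figure D1:**
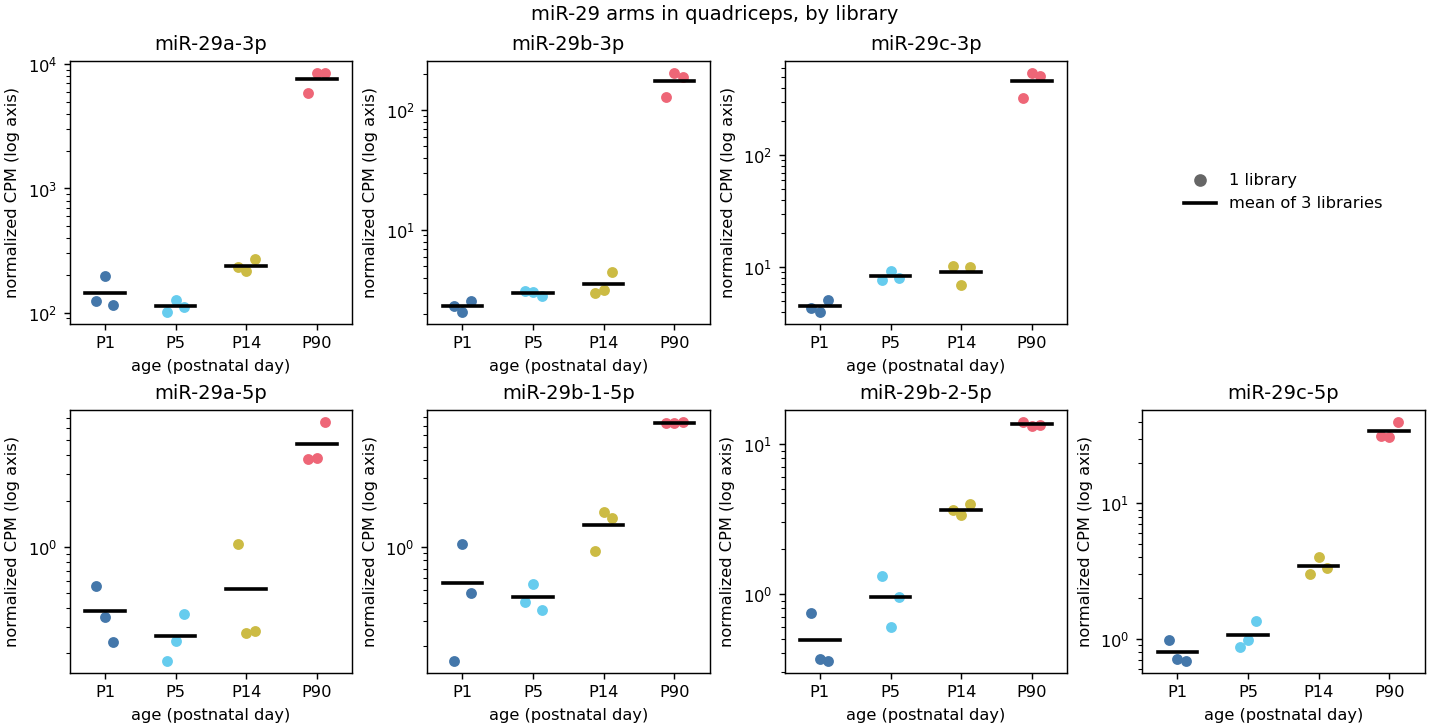
Level of each of the 7 miR-29 arms at P1, P5, P14 and P90, in normalized CPM on a log axis. Each point is 1 library and each line the mean of 3 libraries, and the 3 P90 libraries lie above those of the other ages in all 7 panels.

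MiR-29a-3p was the dominant member of the family, with between 88.3% and 95.8% of its counts in every library. It was counted 4662, 8508 and 4883 times in the P1 libraries, 3985, 5252 and 4932 times at P5, 8430, 8827 and 7731 times at P14, and 97810, 160233 and 101169 times at P90. In normalized CPM the mean was 145 ± 44.3 in the newborn (SD, n = 3 for this and all later values), 113 ± 12.06 at P5, 240 ± 27.2 at P14 and 7580 ± 1527 in the adult. P1 replicate 2 was higher than the other 2 newborn libraries, the P1 and P5 libraries overlapped, and the P14 and the P90 libraries each lay above those of the younger ages. The log2FC was 1.09 for P14 versus P5 (SE 0.20, Padj = 0.000392) and 4.98 for P90 versus P14 (SE 0.23, Padj = 2.4e-11), a 31.6-fold rise with TMM. The latter was 2.73 with library totals alone. It was 4.32 once a trend over GC content, described with the arm ratios, was removed, and was called in both. From P1 to P5 the log2FC was -0.36 (Padj = 0.412), which did not pass the test.

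MiR-29c-3p, the guide arm that differs from miR-29a-3p at a single base, was the second most abundant arm at each age. Its counts were 164, 173 and 215 at P1, 297, 387 and 351 at P5, 370, 282 and 288 at P14, and 5458, 10226 and 6078 at P90. The corresponding levels were 4.49 ± 0.577, 8.27 ± 0.889, 9.07 ± 1.84 and 458 ± 117 normalized CPM. The P5 libraries lay above the P1 libraries, the P5 and P14 libraries overlapped, and the P90 libraries were far above the rest. It was the only arm called for P5 versus P1 (log2FC 0.88, SE 0.21, Padj = 0.0304), when 4.45% of the tested miRNAs were called in that comparison. This call was lost with library totals alone and when replicate 1 or 2 of P1 or replicate 2 or 3 of P5 was left out (log2FC 0.58 to 0.97 over all settings). From P5 to P14 its log2FC was 0.13 (Padj = 0.655), or 0.61 and called with the GC trend removed. From P14 to P90 it was 5.66 (SE 0.25, Padj = 1.1e-11), a 50.5-fold rise with TMM. This last value was 3.41 with library totals alone and 4.57 with the GC trend removed, and was called in both.

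MiR-29b-3p, the guide arm made by both loci, followed miR-29c-3p. It had 87, 90 and 108 counts at P1, 122, 126 and 125 at P5, 109, 128 and 127 at P14, and 2189, 3858 and 2268 at P90. Its level was 2.32 ± 0.248 normalized CPM at P1, 2.99 ± 0.151 at P5, 3.53 ± 0.789 at P14 and 175 ± 39.2 in the adult. The first 3 ages were within a narrow range, although the P5 libraries did not overlap with the P1 libraries. The log2FC was 0.37 for P5 versus P1 (Padj = 0.441) and 0.24 for P14 versus P5 (Padj = 0.398), neither past the test, and 5.63 for P90 versus P14 (SE 0.24, Padj = 7.2e-12). With the GC trend removed the P14 versus P5 value was 0.78 and was called. The P90 versus P14 value was 3.38 with library totals alone and 4.39 with the trend removed, and was called in both.

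The 4 passenger arms together held on average 1.48% of the family's counts in the newborn, 2.17% at P5, 3.49% at P14 and 0.737% in the adult. MiR-29c-5p, the passenger of miR-29c, had 37, 31 and 29 counts at P1, 34, 41 and 60 at P5, 110, 164 and 96 at P14, and 527, 579 and 477 at P90. Its level went from 0.795 ± 0.160 normalized CPM at P1 and 1.07 ± 0.254 at P5 to 3.48 ± 0.517 at P14 and 33.9 ± 5.04 in the adult. The P1 and P5 libraries overlapped, and then each age lay above the one before. It was upregulated from P5 to P14 (log2FC 1.69, SE 0.24, Padj = 3.1e-05) and again from P14 to P90 (log2FC 3.28, SE 0.23, Padj = 4.4e-09). The latter was 1.01 with library totals alone and was still called (Padj = 0.00285).

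MiR-29b-2-5p, the passenger of the second cluster, was with TMM the arm with the most even rise. It had 28, 16 and 15 counts at P1, 51, 25 and 42 at P5, 132, 135 and 113 at P14, and 234, 249 and 160 at P90. In normalized CPM its level was 0.489 ± 0.218, 0.951 ± 0.353, 3.64 ± 0.311 and 13.5 ± 0.381. The P1 and P5 libraries overlapped (log2FC 0.96, Padj = 0.135). It was upregulated from P5 to P14 (log2FC 1.93, SE 0.31, Padj = 0.000123), whereas its log2FC of 1.89 from P14 to P90 (SE 0.30, Padj = 4.7e-05) turned to -0.33 with library totals alone. In unscaled CPM it was 5.59 ± 0.130 at P14 and 4.44 ± 1.05 at P90, while the median tested miRNA had a log2FC of -2.77 in that comparison under library totals.

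MiR-29b-1-5p, the passenger of the first cluster's miR-29b, had 6, 45 and 20 counts at P1, 16, 23 and 16 at P5, 34, 71 and 45 at P14, and 122, 138 and 89 at P90. The newborn libraries differed widely, with the lowest and the highest count of the 6 P1 and P5 libraries both at P1. Its level averaged 0.558 ± 0.445 normalized CPM at P1, 0.441 ± 0.0987 at P5, 1.42 ± 0.428 at P14 and 7.33 ± 0.0798 in the adult. The log2FC was 1.68 for P14 versus P5 (SE 0.48, Padj = 0.0102) and 2.37 for P90 versus P14 (SE 0.46, Padj = 0.000363), and the latter was 0.12 and no longer called with library totals alone. For P5 versus P1 it was -0.35 (Padj = 0.810) and turned to 0.43 without P1 replicate 2.

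MiR-29a-5p, the passenger of the most abundant hairpin, had the lowest mean level at each age. It had 21, 15 and 10 counts at P1, 7, 10 and 16 at P5, 38, 11 and 8 at P14, and 63, 72 and 79 at P90. P14 replicate 1 had more than the other 2 P14 libraries, and only the P90 libraries lay apart. Its level was 0.380 ± 0.162 normalized CPM at P1, 0.260 ± 0.0929 at P5, 0.532 ± 0.445 at P14 and 4.71 ± 1.62 in the adult. The P14 versus P5 log2FC of 1.02 (SE 0.58) did not pass the test (Padj = 0.175), and the P14 versus P1 log2FC of 0.50 turned to -0.50 without P14 replicate 1. From P14 to P90 it rose by a log2FC of 3.12 (SE 0.56, Padj = 0.000179), which was 0.85 and no longer called with library totals alone.

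Between P1 and P5, 1 of 7 arms was upregulated, against a background of 2.72% called higher. Between P5 and P14, 4 of 7 arms were upregulated (18.0% of the tested miRNAs called higher), namely miR-29a-3p and 3 of the 4 passengers. From P14 to P90, 7 of 7 arms were upregulated (22.4% called higher), but 4 of 7 with library totals alone, namely the 3 guide arms and miR-29c-5p. With library totals 646 of the 809 miRNAs were called in either direction and the median log2FC was -2.77, compared with 478 and -0.55 with TMM. For P14 versus P1, 6 of 7 arms were upregulated (20.3% called higher), without miR-29a-5p. It was 3 of 7 when P1 replicate 1 was left out, a fit that called 356 of 887 miRNAs in either direction. The libraries of the 2 ages did not overlap for 2 of 7 arms in P5 versus P1 (32.5% of the tested miRNAs), 4 in P14 versus P5 (54.4%), 7 in P90 versus P14 (61.2%), 5 in P14 versus P1 (59.2%) and 7 in P90 versus P1 (72.6%). With TMM, the last step made up 84.8% to 90.3% of the whole log2FC from P1 to P90 for the 3 guide arms, compared with 39.5% for miR-29b-2-5p, 60.7% for miR-29c-5p, 64.0% for miR-29b-1-5p and 86.3% for miR-29a-5p. With library totals alone these shares were 77.8% to 85.7% for the guide arms, -13.1% for miR-29b-2-5p, 32.2% for miR-29c-5p, 8.57% for miR-29b-1-5p and 64.5% for miR-29a-5p. The passengers' shares thus moved more with the scaling than those of the guide arms. The size of the last step moved with the scaling for all 7 arms. For miR-29a-3p its log2FC was 4.98 with TMM, 2.73 with library totals alone and 6.55 with upper-quartile factors.

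**Figure D2:**
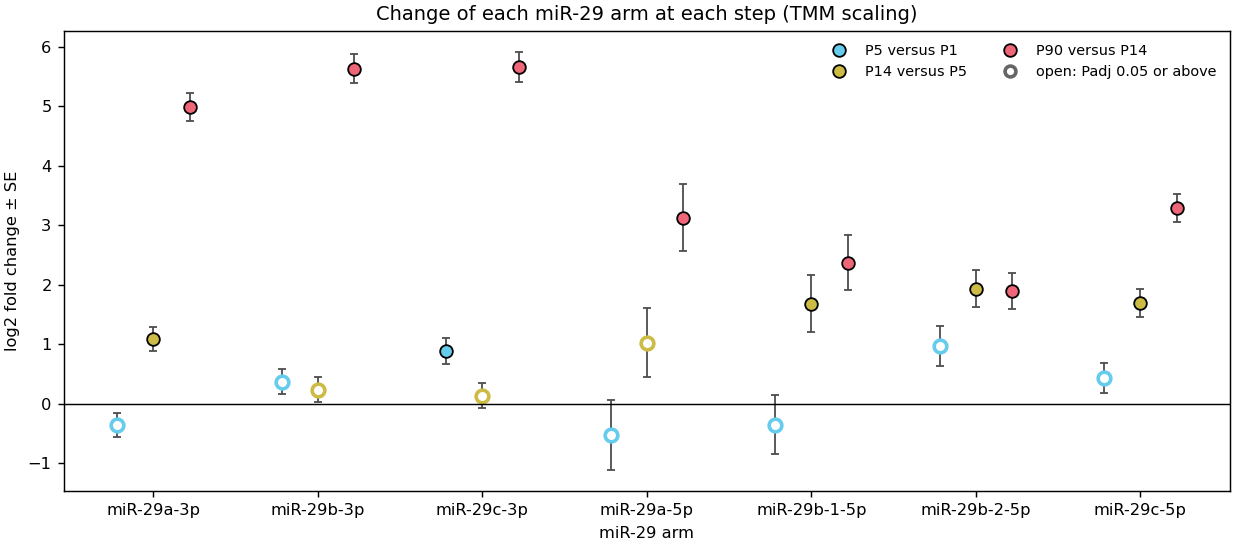
Log2 fold change of each miR-29 arm (± SE) from P1 to P5, from P5 to P14 and from P14 to P90, with TMM scaling. Filled points had a Padj under 0.05 and open points did not; the guide arms have their highest points at the last step, at 4.98 to 5.66, while miR-29b-2-5p has near equal points of 1.93 and 1.89 at the last 2 steps, the latter turning to -0.33 with library totals alone.

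**Figure D3:**
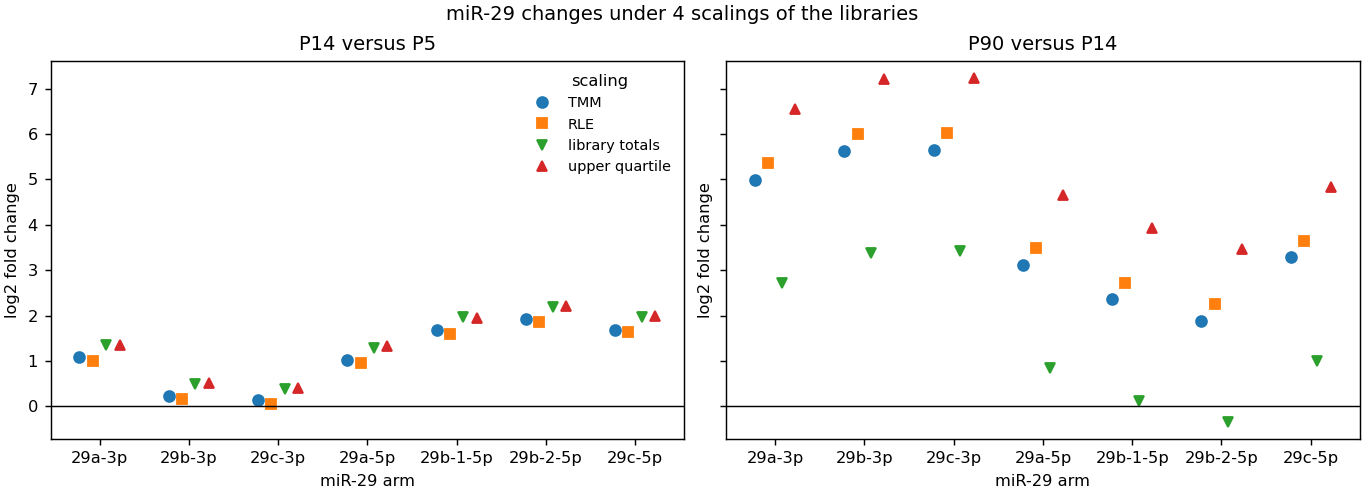
Log2 fold change of each miR-29 arm for P14 versus P5 (left) and P90 versus P14 (right) under 4 scalings of the libraries, each point being the value of 1 fit. The P90 values of the 7 arms shift together between scalings, and miR-29b-2-5p lies at 1.89 with TMM and at -0.33 with library totals alone.

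Ranked by level, miR-29a-3p, miR-29c-3p and miR-29b-3p led in this order at P1, P5 and P90, with no overlap between neighbours at these ages. At P14 the passenger miR-29b-2-5p (3.64 normalized CPM) came next, but its libraries overlapped with those of miR-29b-3p (3.53) and those with miR-29c-5p (3.48). The level and rank of miR-29b-3p depend on how reads matching both loci were counted, which is not given in the sources used here. The libraries of neighbouring passengers overlapped at P1. At P90 the order was miR-29c-5p, miR-29b-2-5p, miR-29b-1-5p and miR-29a-5p, without overlap. These mature RNAs are 22 to 25 bases long and are each sequenced as 1 read, so no scaling by length was made, and differences in ligation between sequences were not measured.

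The arms were then compared within each library, where the ratio does not depend on the scaling. The 5p arm of miR-29c made up 18.4%, 15.2% and 11.9% of the counts of both arms in the P1 libraries, 10.3%, 9.58% and 14.6% at P5, 22.9%, 36.8% and 25.0% at P14, and 8.81%, 5.36% and 7.28% at P90. The share was thus highest in the P14 libraries and lowest in the P90 libraries, and neither age overlapped with any other. On the log2 scale, differences between ages in the ratio of miR-29c-3p to miR-29c-5p exceeded the spread of the libraries (exact permutation test over 15400 partitions, 2-sided, p = 0.00026, adjusted over 8 ratios 0.00208). It fell by 1.59 from P5 to P14 (SE 0.37, n = 3) and rose by 2.36 from P14 to P90 (SE 0.37, n = 3).

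For miR-29b the 5p arms of both hairpins were added, since the 3p arm is shared. They made up 28.1%, 40.4% and 24.5% of the counts at P1, 35.4%, 27.6% and 31.7% at P5, 60.4%, 61.7% and 55.4% at P14, and 14.0%, 9.12% and 9.89% at P90. In the P14 libraries the passengers of miR-29b had more counts than the guide, although the 95% Wilson interval of the lowest library reached down to 49.6%. How reads of miR-29b-3p, which match both loci, were counted is not given in the sources used here, and this share depends on it. No test was made of this share. For miR-29a the 5p arm was below 0.449% of the counts in every library, with means of 0.276%, 0.230%, 0.226% and 0.0624% from P1 to P90. The ratio of miR-29a-3p to miR-29a-5p was 2.10 higher at P90 than at P1 on the log2 scale (exact permutation test across the 4 ages, p = 0.0356, adjusted 0.0481), a call that held without P14 replicate 1 and was lost in the other 11 of 12 fits that left out a library.

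Base composition moved with the age of the libraries. Relative to the mean of all libraries, log2 levels of miRNAs with a mean of at least 10 normalized CPM were at P14 higher by 0.377 to 0.561 for each 10 percentage points of GC content of the mature miRNA, and at P90 they changed by -0.591 to -0.380, whereas the slopes at P1 and P5 were between -0.0123 and 0.0749. MiR-29c-5p has 50% GC and miR-29b-2-5p 44.0%, compared with 34.8% to 40.9% in the guide arms. After this trend was removed, a step added after the data were seen, the 5p share of miR-29c was 14.6%, 11.3%, 20.5% and 10.9% from P1 to P90. The P14 libraries then overlapped with the P1 libraries, and the P90 libraries with those of P1 and P5, so P90 no longer lay apart. The changes of the miR-29c ratio shrank to -1.02 from P5 to P14 and 1.08 from P14 to P90. For miR-29b the shares were 30.5%, 31.3%, 52.97% and 14.0% after removal, and the P14 and P90 libraries still lay apart from those of the other ages. With the trend removed, 7 of 7 arms were called higher for P14 versus P5. In that fit 340 of the 809 tested miRNAs were called in either direction, with a median log2FC of -0.19. With TMM alone 359 were called.

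**Figure D4:**
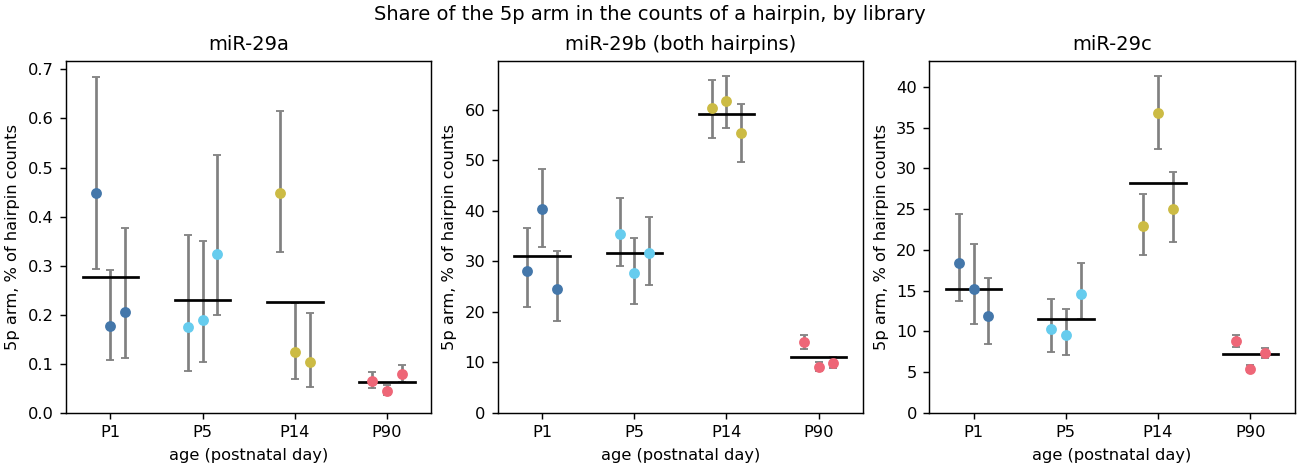
Share of the 5p arm in the counts of both arms, in percent, for miR-29a, miR-29b (both hairpins together) and miR-29c at P1, P5, P14 and P90, without removal of the GC trend. Points are libraries with 95% Wilson intervals and lines are means of 3; the share is highest at P14 for miR-29b and miR-29c, and lowest at P90 in all 3 panels.

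The loci were compared through arms that only 1 of them makes. The count of miR-29c-3p was 3.53%, 2.04% and 4.41% of that of miR-29a-3p in the P1 libraries, 7.46%, 7.38% and 7.13% at P5, 4.39%, 3.20% and 3.73% at P14, and 5.58%, 6.38% and 6.01% at P90. The ratio was highest at P5, and the P5 and P90 libraries each lay apart from those of all other ages, while the P1 and P14 libraries overlapped. Differences between ages exceeded the spread of the libraries (exact permutation test, p = 0.00266, adjusted 0.0071), with log2 differences of 1.21 from P1 to P5 (SE 0.33), -0.97 from P5 to P14 (SE 0.13) and 0.68 from P14 to P90 (SE 0.14). With the GC trend removed the last difference was 0.25. Between P1 and P90 the ratio rose by 0.92, or by 0.60 without P1 replicate 2.

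Over all arms that can be assigned, the 29b-2/29c locus gave 4.06% ± 1.36 (SD, n = 3) of the newborn counts, rising to 8.32% ± 0.405 at P5, with 6.28% ± 0.382 at P14 and 6.21% ± 0.239 in the adult. The P5 libraries were above those of all other ages, the P1 libraries were below, and the P14 and P90 libraries overlapped. The log2 ratio of the loci differed across the ages (exact permutation test, p = 0.000519, adjusted 0.00208) and was 0.71 higher at P90 than at P1, or 0.38 higher without P1 replicate 2. From P14 to P90 the summed ratio changed by -0.017, with overlapping libraries, while the ratio of the guides alone rose by 0.68. With the GC trend removed these changes were -0.18 and 0.25.

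The passengers gave a less certain account of the loci. MiR-29c-5p was counted 1.74 to 2.81 times as often as miR-29a-5p in the P1 libraries, 3.67 to 4.60 times at P5, 2.87 to 14.3 times at P14 and 6.01 to 8.31 times at P90. The log2 ratio was 1.77 higher at P90 than at P1 (SE 0.25, n = 3; exact permutation test across ages, p = 0.0361, adjusted 0.0481), and this call too was kept only without P14 replicate 1 and lost in 11 of 12 such fits. The ratio of miR-29b-2-5p to miR-29b-1-5p, the passengers of the hairpins that share miR-29b-3p, did not differ past the test (exact permutation test, p = 0.511). Its P90 minus P1 difference was 0.79 on the log2 scale (SE 1.07), or 1.81 without P1 replicate 1 and 0.012 without P1 replicate 2. At P90 the 3 libraries nonetheless gave close values, with 1.79 to 1.91 counts of miR-29b-2-5p for each count of miR-29b-1-5p.

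MiR-29b-3p was set against the guides that each locus makes alone. Its count was 53.2%, 52.2% and 50.3% of that of miR-29c-3p at P1, 41.2%, 32.6% and 35.7% at P5, 29.6%, 45.5% and 44.2% at P14 and 40.1%, 37.7% and 37.3% at P90. The P1 libraries lay above those of all other ages, but the test across ages did not pass (exact permutation test, p = 0.055, adjusted 0.0629). It passed when P14 replicate 1, the lowest library, was left out. Against miR-29a-3p the log2 ratio was 0.48 higher at P90 than at P1 (exact permutation test, p = 0.0336, adjusted 0.0481), or 0.15 with the GC trend removed and 0.17 without P1 replicate 2, and the call was lost in 10 of 12 fits that left out a library.

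**Figure D5:**
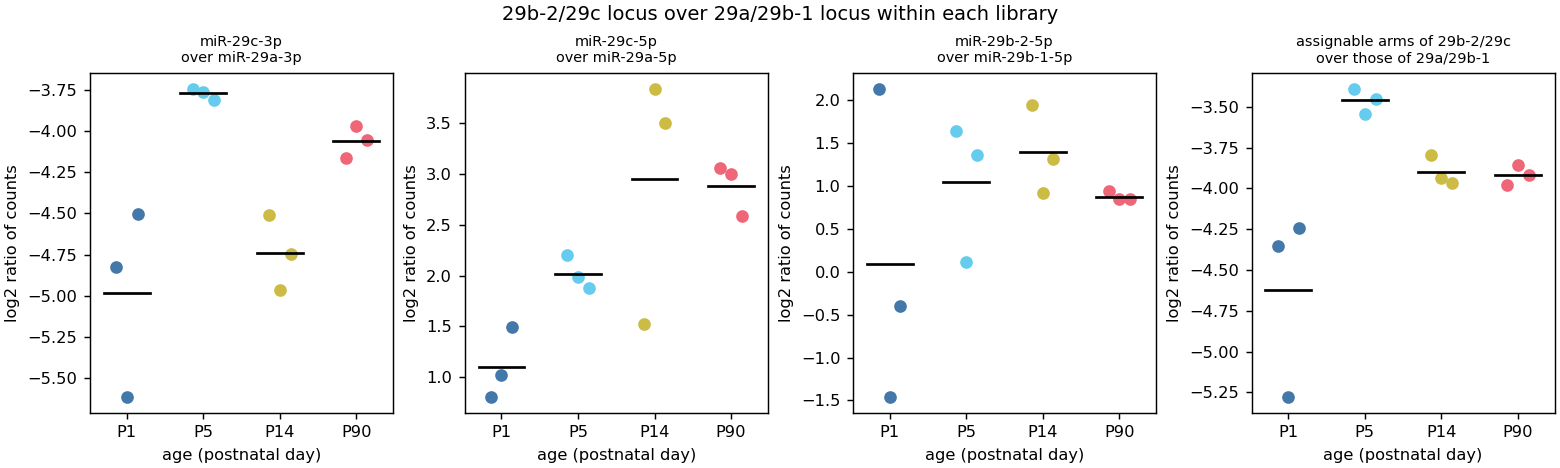
Log2 ratio of counts of the 29b-2/29c locus to the 29a/29b-1 locus within each library at P1, P5, P14 and P90, for the guides, 2 pairs of passengers and the sum of the assignable arms. Points are libraries and lines means of 3; P5 is highest in the guide and summed panels, and P1 replicate 2 is the lowest point in both.

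As a share of all counts, the family rose from 0.0246% ± 0.00884 at P1 (SD, n = 3) and 0.0162% ± 0.00135 at P5 to 0.0402% ± 0.00159 at P14 and 0.267% ± 0.0555 at P90. This exceeded the spread of the libraries (exact permutation test, p = 6.5e-05, the smallest that the 15400 partitions can give). The 95% Wilson interval around the share of a library reached 0.00154 percentage points or less to either side. The rise at P90 thus appeared in the raw composition also, although miR-1a-3p took more of the counts at that age.

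MiRNAs of the same biology were summarised from lists chosen with earlier results in view, so their directions are a description. Of 11 miRNAs that are linked with miR-29 to fibrosis or extracellular matrix, 8 were called higher and 3 lower for P90 versus P1 (median log2FC 1.82). The largest changes were those of miR-133a-3p, a muscle miRNA that represses connective tissue growth factor (log2FC 3.48, SE 0.20, Padj = 2.0e-10), and of miR-30a-5p (log2FC 3.36, SE 0.16, Padj = 1.4e-11). Of 15 linked to myoblast differentiation, 9 were higher and 5 lower (median 0.94), led by falls of miR-503-5p (log2FC -4.66, SE 0.17, Padj = 1.3e-12), which restrains the cell cycle, and miR-206-3p (log2FC -3.78, SE 0.16, Padj = 5.1e-12), a muscle miRNA abundant in regenerating fibres. Of the 7 muscle miRNAs 3 were higher and 3 lower (median 0.28), with the largest changes in miR-499-5p (log2FC -3.99, SE 0.45, Padj = 9.2e-07) and miR-208b-3p (log2FC -3.85, SE 0.45, Padj = 1.4e-06), both from introns of slow myosin genes. In comparison, 25.2% of the tested miRNAs were higher and 41.2% lower, with a median of -0.72. These counts depend on the scaling. With library totals alone, an alternative added after the data were seen, 3 of the 11 were higher and 6 lower (median -0.45), 2 of the 15 were higher and 11 lower (median -1.36), and 2 of the 7 were higher and 4 lower (median -2.04), against a median of -2.97 over all miRNAs. The directions of the 6 miRNAs named here stayed as given and past the test under all 4 scalings.

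Markers of other cells of the muscle moved with age too. The values and summed levels below are with TMM, and the other scalings of these lists were added after the data were seen. All 5 mesenchymal markers were called lower for P90 versus P1, led by miR-199a-5p (log2FC -2.85, SE 0.17, Padj = 2.8e-10) and miR-214-5p (log2FC -2.83, SE 0.18, Padj = 7.3e-10). Their summed level went from between 11305 and 13712 normalized CPM at P1 to between 1884 and 2687 at P90. With upper-quartile factors 3 of the 5 were called lower, and with library totals alone and RLE all 5 were. All 6 endothelial and smooth muscle markers were called higher, led by miR-143-3p (log2FC 1.87, SE 0.14, Padj = 5.7e-09) and miR-145a-5p (log2FC 1.82, SE 0.13, Padj = 3.5e-09), and their sum went from between 20664 and 24253 to between 67096 and 86758. With library totals alone all 6 were called lower instead (median -0.67), when the median over all miRNAs was -2.97. The sign of this list's change thus depends on the scaling. Its median lay above that of all miRNAs under all 4 scalings (1.61 against -0.72 with TMM). The 7 miR-29 arms were called higher under all 4 scalings. The muscle list itself rose from a sum between 154579 and 208206 to one between 1455485 and 2374483, a sum set mainly by miR-1a-3p. The P90 sums were scaled with TMM factors of 0.247 to 0.384, so the size of this rise depends on the scaling. For miR-1a-3p the log2FC was 3.44 with TMM, 1.13 with library totals alone and 5.299 with upper-quartile factors, and was called in each.

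Of 7 blood cell markers 2 were called higher and 2 lower, with miR-150-5p (log2FC 3.77, SE 0.19, Padj = 4.3e-11) and miR-142a-3p (log2FC -1.34, SE 0.27, Padj = 0.000333) the most changed, and their sum went from between 557 and 745 to between 655 and 827. Of 5 neural markers tested 2 were higher, with miR-338-3p (log2FC 2.10, SE 0.35, Padj = 6.8e-05) and miR-124-3p (log2FC 1.15, SE 0.45, Padj = 0.0352) the most changed. The sum of the 6 listed was between 111 and 222 at P1 and between 215 and 268 at P90. Of 7 epithelial markers 3 were lower, with miR-429-3p (log2FC -2.99, SE 0.67, Padj = 0.001) and miR-205-5p (log2FC -2.70, SE 0.42, Padj = 2.9e-05) leading and a sum from between 206 and 320 to between 153 and 420. The liver marker miR-122-5p was lower (log2FC -2.72, SE 0.66, Padj = 0.00185), from between 44.2 and 366 to between 14.99 and 47.5. With library totals alone 1 blood cell marker was higher and 6 lower, 4 neural markers were lower, and all 7 epithelial markers were lower. With upper-quartile factors 6 blood cell markers, 5 neural markers and 4 epithelial markers were higher and none of these lower, and miR-122-5p was not called. The median log2FC over all miRNAs was -2.97 with library totals alone and 1.177 with upper-quartile factors. The list medians were -2.86 and 1.32 (blood cell), -2.91 and 1.25 (epithelial) and -1.19 and 2.90 (neural), and miR-122-5p had -5.02 and -0.80. The blood cell and epithelial medians thus moved with that of all miRNAs, and their counts do not single out these markers. Of the 7 markers named from these 4 lists, miR-150-5p alone kept its direction and call under all 4 scalings. No listed marker was at 0 in all libraries of an age, and the part of these cells in the miR-29 result was not tested.

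The miRNAs whose levels across the 12 libraries were most like the mean profile of the 3 guide arms were miR-185-5p (Pearson r = 0.989), miR-16-5p (0.984), miR-30a-5p (0.984), miR-143-3p (0.981) and miR-1839-5p (0.979), out of 204 with a mean of at least 100 normalized CPM. The profile compares standardized log2 levels and so disregards the size of a change. The log2FC of these 5 for P90 versus P1 were 1.89, 1.60, 3.36, 1.87 and 1.32, below the 5.70 to 6.67 of the guide arms. With library totals alone they were -0.39, -0.67, 1.07, -0.41 and -0.96, compared with 3.40 to 4.38 for the guide arms. The values compared come from the same libraries, with their depth and scaling in common, and 3 of the 12 lie far above the rest for each guide arm, so r is given as a description only.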

How the data were processed

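The 12 libraries were made from total RNA with a NEXTflex small RNA kit. The authors trimmed reads with cutadapt 1.18 and kept lengths of 10 to 35 bases, aligned them to GRCm38 (Bowtie2 2.4.1) and obtained counts per mature miRNA from featureCounts 2.0.1. The deposited values are raw read counts without normalization, and no use of molecular identifiers is stated, so intervals cover counting error only. Options for strand and multiple alignments are not given in the sources used here. Of 1966 rows 424 had no count. Replicate libraries differed by more than sampling noise (chi-square per degree of freedom from 105 to 750).

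Groups were taken from the sample titles. One edgeR 4.0.16 quasi-likelihood model (R 4.3.3, TMM factors, filterByExpr) took all 12 libraries with age as the only factor, and Benjamini-Hochberg adjustment ran over the 809 miRNAs that passed the filter. SE were derived from the F statistic. The scripts were tested on simulated data. The 8 within-library ratios (0.5 added to each count) were tested with an exact permutation test of the sum of squares between ages (scipy 1.17.1).

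The alternatives were RLE, upper-quartile and no factors, no filter, DESeq2 1.42.0, a replicate block, GC trend removal (85% of tested miRNAs had a value), leaving out miR-1a-3p and miR-1b-5p, only the 2 ages compared, and leaving out each library. The text names all 7 arms, the 2 most changed members of each list for P90 versus P1, and the 5 other miRNAs most like the guide arms. The members, lists and tests were chosen with earlier results of these data known. Sequences and the printed positions came from RefSeq (GRCm38.p6, 1675 of 1966 names matched). Host genes came from GENCODE vM39, whose coordinates were used only to place the hairpins in exons or introns of its genes.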

Additional observations from a re-analysis of the deposited data

How the results depend on the processing

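For P90 versus P1 all 7 arms were called under each of the 22 alternatives, and across the 4 ages under each of 21. Other counts of called arms moved: P5 versus P1 from 1 to 0 with library totals alone, 2 with DESeq2 (miR-29b-2-5p added) and 0 with the replicate block, P14 versus P5 from 4 to 7 with the GC trend removed and 6 with this and the replicate block, P14 versus P1 from 6 to 4 with library totals alone or with only the 2 ages in the fit and 5 with no filter on low counts, and P90 versus P14 from 7 to 4 with library totals alone. The number of all miRNAs called in either direction moved too. For P5 versus P1 it was 36 with TMM, 40 with library totals alone, 78 with DESeq2 and 15 with the replicate block. For P14 versus P5 it was 359 with TMM, 340 with the GC trend removed and 316 with this and the block. Library totals alone changed it from 397 to 372 for P14 versus P1 and from 478 to 646 for P90 versus P14. Leaving out single libraries gave 0 to 1 called arms for P5 versus P1 and 3 to 6 for P14 versus P1 (3 without P1 replicate 1). For single arms, the direction reversed for miR-29b-1-5p P5 versus P1 without P1 replicate 2 (-0.79 to 0.43 over the libraries left out), for miR-29b-2-5p P90 versus P14 with library totals alone (-0.33) and for miR-29a-5p P14 versus P1 without P14 replicate 1 (-0.50 to 0.81). The causes were not tested.

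The ratio miR-29c-5p over miR-29a-5p (1.76), miR-29a-3p over miR-29a-5p (2.06) and miR-29b-3p over miR-29a-3p (0.489) were no longer called when nothing was added to the counts, nor with the replicate block (1.77, 2.10 and 0.482), and the last also not with the GC trend removed (0.151), which was added after the data were seen. Without single libraries they ranged from 1.62 to 1.97, from 1.69 to 2.36 and from 0.169 to 0.700, and 11, 11 and 10 of 12 such fits missed the threshold. MiR-29b-3p over miR-29c-3p ranged from -0.468 to -0.415 and was called without P14 replicate 1. The other 3 called ratios and the family share stayed called under the alternatives run for them.

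Replicate numbers did not pair the libraries, since correlations of same-numbered libraries lay between -0.0967 and 0.124 over 18 pairs, and 2 of 12 libraries correlated best with their own number. With 6 to 71 counts a library before P90, miR-29a-5p and miR-29b-1-5p limit what the passenger ratios at these ages can show.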
